A study of Rattus norvegicus with 48 samples.

Results

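Fosb (ENSRNOG00000046667) and Nr4a3 (ENSRNOG00000005964) are genes of activity-induced transcription factors, and their transcript levels were followed over all 48 libraries of the study. Both were chosen by earlier results of these same libraries, in which Fosb was among the largest rises of LRT plantaris and Nr4a3 among the largest falls of LRT soleus. In build Rnor_6.0 Fosb lies on chromosome 1 and Nr4a3 on chromosome 5. They are 2 of 31998 genes in the count table, and both are among the 16960 genes that passed the filter on low counts. The rats were 24 females of 14 months of age from generation 19 of a line bred for low (LRT) and a line bred for high (HRT) response to endurance training, with 12 rats per line. The lines came from genetically heterogeneous stock, and the rats had run a treadmill program as young adults. In each line 6 rats had 1 hindlimb held in a cast in plantar-flexion for 3 d (hindlimb immobilization, HI) and 6 had no cast (CTRL). Plantaris and soleus were taken from every rat under isoflurane anaesthesia, which gives 8 groups of 6 libraries: LRT CTRL, LRT HI, HRT CTRL and HRT HI in each muscle. The HI rats received puromycin shortly before collection, and the methods state the same procedures for the removal of CTRL muscles. The immobilized limb was compared with other rats and not with the free limb of the same rat.

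Immediate-early genes are transcribed within minutes of a stimulus such as contraction, stretch, stress or injury, without new protein being made first. FosB is a member of the AP-1 family, whose Fos proteins bind DNA as dimers with Jun proteins, and the gene also gives the shorter splice form ΔFosB, which gene-level counts do not separate. Nr4a3 (NOR-1) is an orphan nuclear receptor of the NR4A family that acts without a known ligand, and in muscle it is known as one of the genes most induced by exercise, through calcium and cAMP signalling, with targets in oxidative metabolism. The CRE is the DNA element through which cAMP and calcium act on many such genes, and the NBRE is the element bound by NR4A receptors as monomers.

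Library totals were between 26.8 M and 36.4 M estimated counts (M, mega), and the RNA integrity number (RIN), as the labels give it, was between 7.8 and 8.6. Among HI libraries RIN moved with muscle. Its median in LRT HI was 8.3 in plantaris (8.3 to 8.6) and 8 in soleus (7.8 to 8.2). In HRT HI the median was 8.5 in plantaris (7.9 to 8.5) and 8.1 in soleus (7.8 to 8.2). Levels are given as counts per M (CPM) with TMM-scaled library sizes, and fold changes come from 1 edgeR fit over the 48 libraries with RIN as a covariate. CPM does not account for gene length, so Fosb and Nr4a3 were not compared with each other in level. The labelled muscles were checked on the summed CPM of 5 fast fibre markers (Atp2a1, Pvalb, Myoz1, Pgam2 and Eno3). This sum was between 13100 and 21700 in the CTRL libraries of plantaris and between 1300 and 3120 in those of soleus. No slow fibre marker could be checked, since 0 of 4 had an identifier paired with a symbol. In these bulk samples fewer cells of a type and less RNA per cell cannot be told apart.

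The promoter of Fosb and those of 3 partner or family genes described below are shown because the CRE is the element through which activity signals reach many immediate-early genes. Each is 250 bases before to 50 bases after the annotated start, from RefSeq on build GRCr8, written 5′ to 3′ on the gene's strand. Fosb lies at chr1:88089135-88089434 (minus strand), Nr4a1 at chr7:134259888-134260187 (plus strand), Nr4a2 at chr3:62104838-62105137 (minus strand) and Junb at chr19:40080876-40081175 (plus strand). Capitals mark TGACG, the core of the CRE, on either strand, so that CGTCA is the same core read on the opposite strand. The promoter of Nr4a3 was not analysed here.
Fosb: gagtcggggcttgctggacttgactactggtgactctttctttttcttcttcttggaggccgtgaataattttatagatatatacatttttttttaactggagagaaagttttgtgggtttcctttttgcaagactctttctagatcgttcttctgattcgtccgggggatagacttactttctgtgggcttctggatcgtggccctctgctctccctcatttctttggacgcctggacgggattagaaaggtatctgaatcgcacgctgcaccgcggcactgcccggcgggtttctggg
Nr4a1: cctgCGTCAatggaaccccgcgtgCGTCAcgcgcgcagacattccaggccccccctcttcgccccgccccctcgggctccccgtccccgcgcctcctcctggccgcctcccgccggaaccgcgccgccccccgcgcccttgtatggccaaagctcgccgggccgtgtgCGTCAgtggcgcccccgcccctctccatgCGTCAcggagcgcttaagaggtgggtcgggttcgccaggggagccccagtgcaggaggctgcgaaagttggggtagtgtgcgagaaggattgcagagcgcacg
Nr4a2: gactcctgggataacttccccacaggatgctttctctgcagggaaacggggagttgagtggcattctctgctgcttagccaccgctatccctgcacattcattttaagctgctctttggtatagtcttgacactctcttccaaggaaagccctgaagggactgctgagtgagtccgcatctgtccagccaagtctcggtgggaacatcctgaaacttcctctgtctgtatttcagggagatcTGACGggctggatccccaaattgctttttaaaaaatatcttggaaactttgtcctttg
Junb: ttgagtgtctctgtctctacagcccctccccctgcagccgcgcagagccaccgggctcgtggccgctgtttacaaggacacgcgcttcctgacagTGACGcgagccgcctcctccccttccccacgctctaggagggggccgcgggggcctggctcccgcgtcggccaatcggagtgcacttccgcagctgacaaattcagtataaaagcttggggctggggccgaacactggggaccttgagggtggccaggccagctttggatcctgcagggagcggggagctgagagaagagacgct

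The window of Fosb held 0 matches to TGACG, to the whole CRE (TGACGTCA, which contains TGACG) or to the NBRE (AAAGGTCA). Nr4a1 held 4 cores, at -246, -226, -82 and -53 from the start site, all read on the strand opposite to the gene. Nr4a2 held 1 core at -8 and Junb held 1 core at -155, both on the gene's own strand. Over all 33469 promoters of the same length, searched on both strands, 21.2% held the core, 1.83% the whole CRE and 1.43% the NBRE. Of the 32 promoters found for the 36 pathway genes described below, 24 (75%) held the core, 8 the whole CRE and 0 the NBRE. The lists were drawn up around immediate-early and CREB genes, so this share is not independent of the element searched. A match describes the letters and is not evidence of binding. For each gene only 1 annotated start was searched, and it was not checked against the start used in these muscles. The count of 0 for Fosb therefore holds for this window and does not show that the gene lacks a CRE.

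In plantaris, Fosb was higher after 3 d of immobilization in both lines. In LRT CTRL plantaris the lowest, median and highest library had 0.335, 0.69 and 1.33 CPM (0.732 ± 0.379, mean ± SD, n = 6). In LRT HI plantaris they had 9.28, 21.7 and 27.6 CPM (19.6 ± 7.79, SD, n = 6). Every HI library was above every CTRL library, and the lowest HI library still had 298 estimated counts, whereas the highest CTRL library had 35.24. The fitted difference was a log2 fold change of 4.93 (SE 0.70, 30.4-fold), the rank 6 of all 16960 genes from the top. This contrast chose the gene, so its value is a description without a test. Of all genes tested, 15.1% were called higher in it.

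The rise in HRT plantaris was not the contrast named in the choice of Fosb and was tested. Earlier results of these libraries were known, however. Fosb ranked 7 of 16960 genes from the top here and 10 in HRT soleus. Its p-values are thus not those of a gene picked independently of the data. In HRT CTRL plantaris the lowest, median and highest library had 0.304, 0.463 and 1.93 CPM (0.832 ± 0.673, SD, n = 6). In HRT HI plantaris they had 1.4, 9.24 and 25.4 CPM (12.1 ± 10.6, SD, n = 6). The groups overlapped in 1 HI library, replicate 3 with 1.4 CPM, and the other 5 HI libraries were above every CTRL library. The log2 fold change was 3.92 (SE 0.68, 95% interval 2.55 to 5.29, 15.1-fold, adjusted p = 4e-04), in a comparison in which 5.11% of genes were called higher. Without any 1 of the 12 libraries it was between 3.36 and 4.43 and the adjusted p was at most 0.0024.

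**Figure D1:**
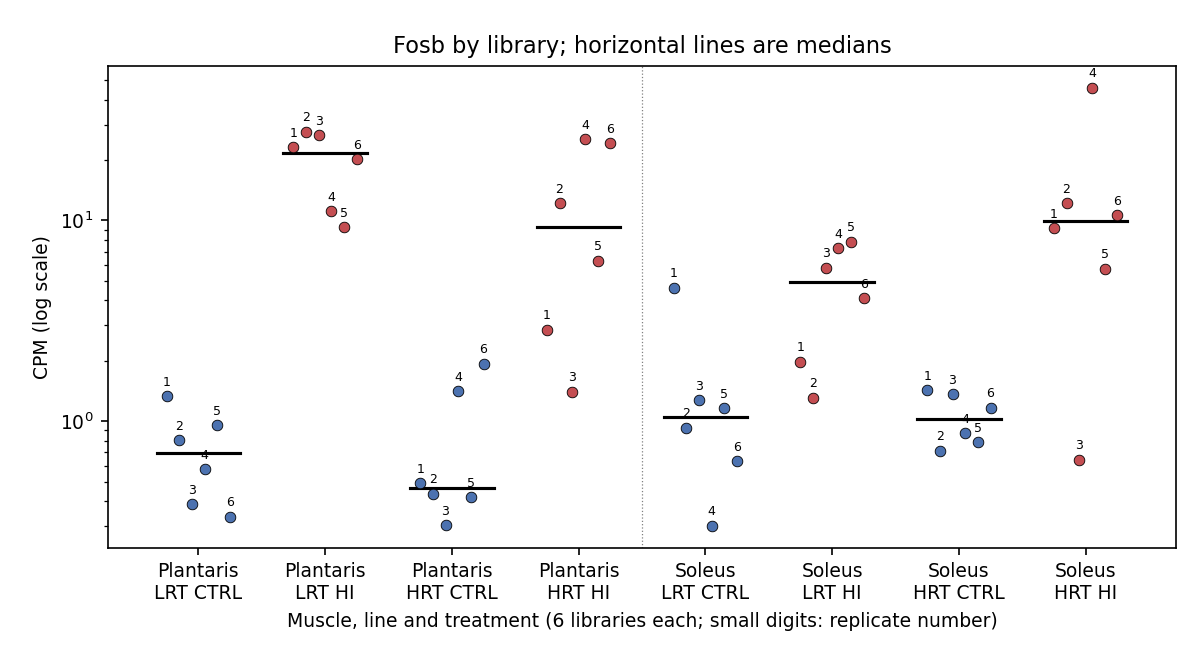
Fosb in CPM (log scale) in each of the 48 libraries by muscle, line and treatment, with CTRL in blue, HI in red, horizontal lines for medians and small digits for replicate numbers. The HI medians are 21.7 and 9.24 CPM in plantaris and 4.96 and 9.9 CPM in soleus of LRT and HRT, against CTRL medians between 0.463 and 1.04 CPM.

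In soleus, Fosb was called higher after immobilization in HRT, and the LRT difference did not pass the test. In HRT CTRL soleus the lowest, median and highest library had 0.714, 1.02 and 1.43 CPM (1.06 ± 0.308, SD, n = 6). In HRT HI soleus they had 0.642, 9.9 and 45.7 CPM (14 ± 16, SD, n = 6). Of the 6 HI libraries 5 were above every CTRL library, and 1, again replicate 3, was below every CTRL library, so that the HI libraries spread over 71.1-fold. The log2 fold change was 3.31 (SE 0.68, 95% interval 1.95 to 4.67, 9.92-fold, adjusted p = 0.00092), and 7.95% of genes were called higher in this comparison. Leaving out any 1 of the 12 libraries gave between 2.77 and 3.62, with an adjusted p of at most 0.0034. Other settings gave between 2.66 (limma-voom) and 3.72 (no RIN covariate), with an adjusted p of at most 0.011.

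In LRT CTRL soleus the lowest, median and highest library had 0.301, 1.04 and 4.62 CPM (1.48 ± 1.58, SD, n = 6). In LRT HI soleus they had 1.31, 4.96 and 7.82 CPM (4.71 ± 2.71, SD, n = 6). The groups overlapped, with 3 HI libraries above every CTRL library. The log2 fold change was 1.64 (SE 0.62, 95% interval 0.38 to 2.90, 3.11-fold, adjusted p = 0.07), where 7.36% of genes were called higher. The call turned on single libraries: without the highest CTRL library, replicate 1 with 4.62 CPM, the log2 fold change was 2.37 (adjusted p = 0.018), and without the lowest HI library, replicate 2 with 1.31 CPM, it was 1.86 (adjusted p = 0.04). The DESeq2 Wald test gave an adjusted p of 0.048 and library totals without TMM gave 0.046.

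Between the lines, no tested difference in Fosb passed the adjusted threshold, although the interval of the soleus HI difference did not include 0. In soleus CTRL the log2 difference of LRT against HRT was 0.30 (SE 0.68, 95% interval -1.08 to 1.67, adjusted p = 0.88, with 1.45% of genes called). In soleus HI it was -1.38 (SE 0.58, 95% interval -2.55 to -0.20, adjusted p = 0.12), beside 12.2% of genes called, and no LRT HI library lay outside the range of the HRT HI libraries. Without HRT HI replicate 3, the low library, this difference became -1.66 (adjusted p = 0.042), and without HRT HI replicate 4, the high library, it became -0.74 (adjusted p = 0.48). DELTA, the HI effect of LRT minus that of HRT, was -1.67 in soleus (SE 0.91, 95% interval -3.5 to 0.16, adjusted p = 0.56), in a comparison with 5 genes called (0.0295%). It was between -1.98 and -1.0 with 1 library left out, the weakest value being without LRT CTRL replicate 1 (adjusted p = 0.76), and -1.16 with limma-voom (adjusted p = 0.75). In plantaris the LRT minus HRT difference was -0.21 (SE 0.76) in CTRL and 0.80 (SE 0.56) in HI, and DELTA was 1.01 (SE 0.94). With 1 library left out the plantaris CTRL difference was between -0.42 and 0.28, and DELTA in plantaris between 0.52 and 1.62. These plantaris values contain the LRT libraries that chose the gene and were not tested.

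Between the muscles of HRT rats, Fosb in plantaris and soleus was not distinguishable. The log2 difference of plantaris against soleus was -0.18 in CTRL (SE 0.72, 95% interval -1.64 to 1.28, adjusted p = 0.87, with 38.8% of genes called). In HI it was 0.43 (SE 0.66, 95% interval -0.90 to 1.76, adjusted p = 0.65, with 34.2% called). Mean CPM ran the other way in HI (12.1 in plantaris and 14 in soleus), and without RIN the HI difference was -0.21. The HI effect in plantaris minus that in soleus was 0.61 in HRT (SE 0.95, 95% interval -1.30 to 2.52, adjusted p = 0.84), and 0.0943% of genes were called for it. This value was between 0.13 and 1.24 over other settings, and between 0.16 and 1.16 with 1 library left out. In LRT rats every HI plantaris library was above every HI soleus library, with a log2 difference of 2.60 (SE 0.65), which is given without a test. By mean CPM the order of the 8 groups was plantaris LRT HI, soleus HRT HI, plantaris HRT HI, soleus LRT HI, soleus LRT CTRL, soleus HRT CTRL, plantaris HRT CTRL and plantaris LRT CTRL, and each neighbouring 2 groups overlapped in this order.

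Nr4a3 was lower after immobilization in soleus of both lines. In LRT CTRL soleus the lowest, median and highest library had 0.973, 3.36 and 10.2 CPM (4.47 ± 3.39, SD, n = 6). In LRT HI soleus they had 0.433, 0.538 and 0.793 CPM (0.564 ± 0.138, SD, n = 6). The groups did not overlap, and the HI libraries lay within 1.83-fold of each other while the CTRL libraries spread over 10.5-fold. The log2 fold change was -3.13 (SE 0.70, 8.78-fold lower), the rank 13 of all genes from the bottom. It chose the gene and was not tested, and 6.58% of genes were called lower in the same comparison. The HI libraries held between 14 and 20.95 estimated counts of Nr4a3, so their differences from each other rest on few reads.

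In HRT soleus the lowest, median and highest CTRL library had 0.898, 1.8 and 19.4 CPM (4.9 ± 7.2, SD, n = 6). The HI libraries had 0.48, 0.809 and 1.05 CPM (0.76 ± 0.218, SD, n = 6). Of the 6 HI libraries 5 were below every CTRL library, and replicate 3 with 1.05 CPM overlapped with the lowest CTRL library. The log2 fold change was -2.75 (SE 0.66, 95% interval -4.08 to -1.41, 6.72-fold lower, adjusted p = 0.0042), in a comparison with 8.23% of genes called lower. This call rested on 1 library: without CTRL replicate 6, which had 19.4 CPM, the log2 fold change was -1.49 and the adjusted p was 0.11. Without each of the other libraries in turn the call was kept. Other settings gave between -2.77 and -2.05, with an adjusted p of at most 0.022.

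**Figure D2:**
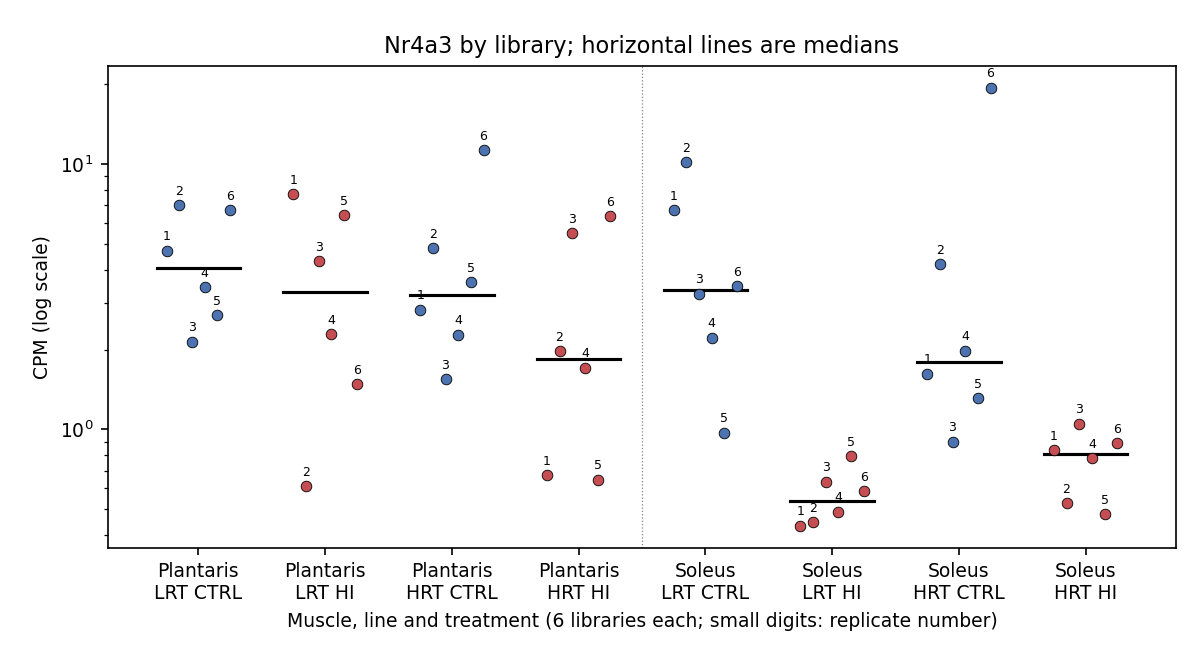
Nr4a3 in CPM (log scale) in each of the 48 libraries by muscle, line and treatment, with CTRL in blue, HI in red, horizontal lines for medians and small digits for replicate numbers. The soleus HI libraries sit between 0.433 and 1.05 CPM, while the plantaris groups of CTRL and HI overlap, and HRT CTRL replicate 6 is the highest library in both muscles (11.3 and 19.4 CPM).

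In plantaris, Nr4a3 did not pass the test in either line. In LRT the lowest, median and highest library had 2.14, 4.08 and 7.01 CPM in CTRL (4.45 ± 2.06, SD, n = 6). In LRT HI plantaris they had 0.61, 3.3 and 7.71 CPM (3.8 ± 2.84, SD, n = 6). The groups overlapped and the log2 fold change was -0.14 (SE 0.59, 95% interval -1.33 to 1.05, adjusted p = 0.88), with 13.6% of genes called lower. In HRT CTRL plantaris they had 1.55, 3.22 and 11.3 CPM (4.39 ± 3.55, SD, n = 6). In HRT HI plantaris they had 0.647, 1.84 and 6.36 CPM (2.81 ± 2.49, SD, n = 6). These groups overlapped too, with 2 HI libraries below every CTRL library. The log2 fold change was -0.61 (SE 0.60, 95% interval -1.82 to 0.60, adjusted p = 0.55), beside 5.85% of genes called lower. Both intervals reach below -1 on the log2 scale, so these libraries do not show that plantaris was without a fall.

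The lines did not differ in Nr4a3 beyond its spread in plantaris, the muscle in which they could be tested. The log2 difference of LRT against HRT was 0.03 in CTRL (SE 0.59, 95% interval -1.16 to 1.22, adjusted p = 0.99), where 0.525% of genes were called. In HI it was 0.50 (SE 0.60, 95% interval -0.70 to 1.71, adjusted p = 0.70), where 2.42% were called. DELTA in plantaris was 0.47 (SE 0.84, 95% interval -1.22 to 2.16, adjusted p = 0.94). In that comparison edgeR called 0 of 16960 genes (0%), with 1060 at an unadjusted p under 0.05, while DESeq2 called 6 and limma-voom 2. In soleus the differences of LRT against HRT were -0.09 (SE 0.58) in CTRL and -0.48 (SE 0.74) in HI, and DELTA was -0.39 (SE 0.94), all without a test.

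The muscles of HRT rats differed in Nr4a3 after immobilization. The log2 difference of plantaris against soleus was 0.04 in HRT CTRL (SE 0.60, 95% interval -1.17 to 1.26, adjusted p = 0.96). In HRT HI it was 2.18 (SE 0.70, 95% interval 0.77 to 3.59, 4.53-fold, adjusted p = 0.013), and 4 of 6 plantaris libraries were above every soleus library. Without plantaris HRT HI replicate 6, which had 6.36 CPM, this difference was 1.76 and its adjusted p was 0.098. The RIN of these HRT HI libraries also differed by muscle (medians of 8.5 in plantaris and 8.1 in soleus), and the call was kept without RIN as a covariate. The test of the change itself, the HI effect in plantaris minus that in soleus, gave 2.13 (SE 0.89, 95% interval 0.35 to 3.92, adjusted p = 0.30 in edgeR's quasi-likelihood test) in HRT. Without soleus HRT CTRL replicate 6 it was 0.85 (adjusted p = 0.72), without plantaris HRT CTRL replicate 6 it was 2.85 (adjusted p = 0.21), and limma-voom gave 1.47 (adjusted p = 0.54). The same value was 2.99 (SE 0.92) in LRT, where it was not tested. By mean CPM the order of the groups was soleus HRT CTRL, soleus LRT CTRL, plantaris LRT CTRL, plantaris HRT CTRL, plantaris LRT HI, plantaris HRT HI, soleus HRT HI and soleus LRT HI, with overlap between all neighbours. The first place of soleus HRT CTRL came from replicate 6, since by median that group had 1.8 CPM, below all 4 plantaris groups.

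**Figure D3:**
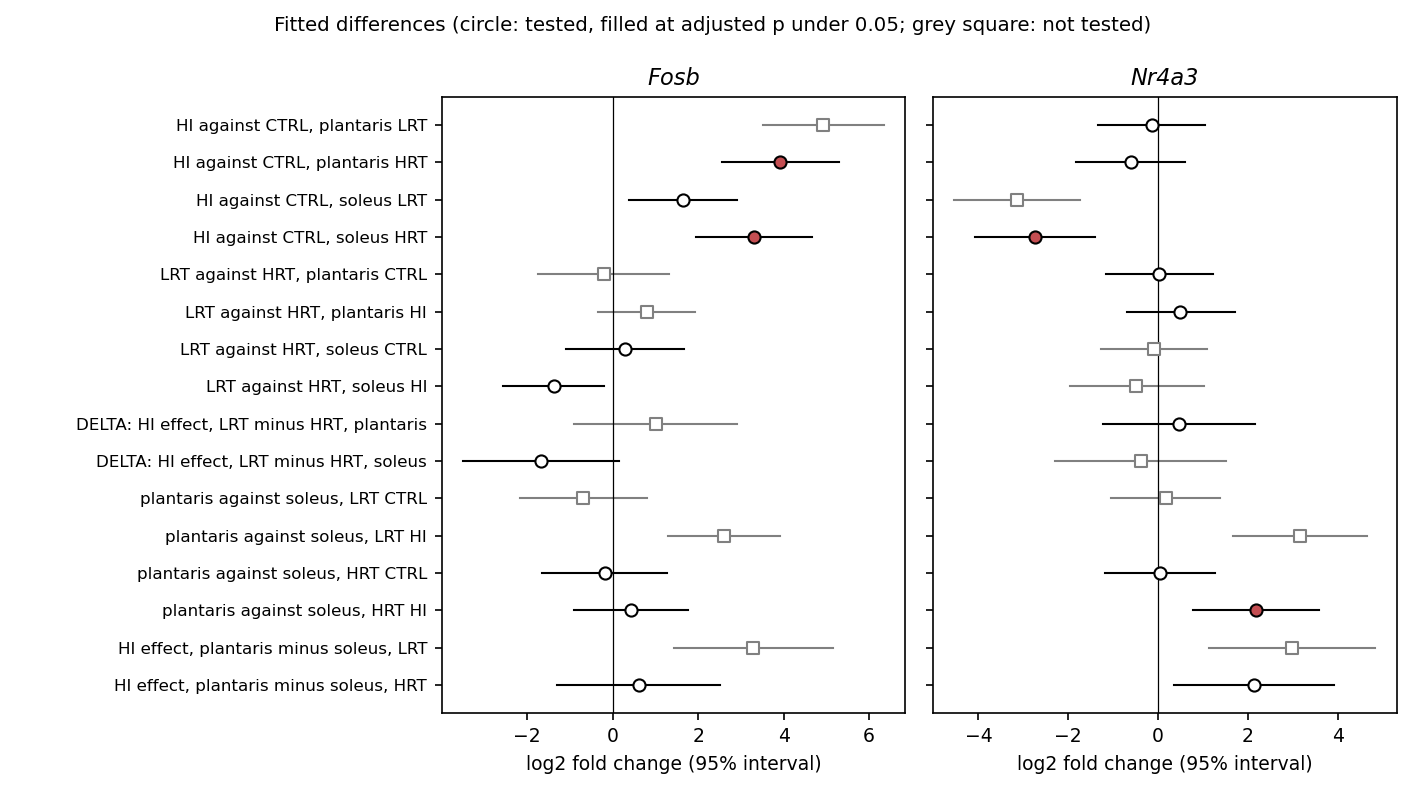
Fitted log2 fold changes with 95% intervals for Fosb (left) and Nr4a3 (right) in the 16 comparisons. Circles were tested and are filled where the adjusted p is under 0.05, and grey squares hold libraries that chose the gene and were not tested. Filled points are the rises of Fosb in HRT plantaris (3.92) and HRT soleus (3.31), the fall of Nr4a3 in HRT soleus (-2.75) and its muscle difference in HRT HI (2.18).

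Several libraries with extreme values carried the same replicate number in both muscles, a pattern that was noticed after the values were seen. Fosb in HRT HI replicate 3 was the lowest of its group in plantaris (1.4 CPM) and in soleus (0.642 CPM). In HRT HI replicate 4 it was the highest in plantaris (25.4 CPM) and in soleus (45.7 CPM). Nr4a3 in HRT CTRL replicate 6 was the highest in plantaris (11.3 CPM) and in soleus (19.4 CPM), and in LRT CTRL replicate 2 it was also the highest in both (7.01 and 10.2 CPM). LRT HI rats showed the opposite order for Fosb, where replicate 2 was the highest in plantaris (27.6 CPM) and the lowest in soleus (1.31 CPM). In Nr4a3, LRT HI replicate 1 was the highest in plantaris (7.71 CPM) and the lowest in soleus (0.433 CPM). The labels do not state that a number marks the same rat.

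**Figure D4:**
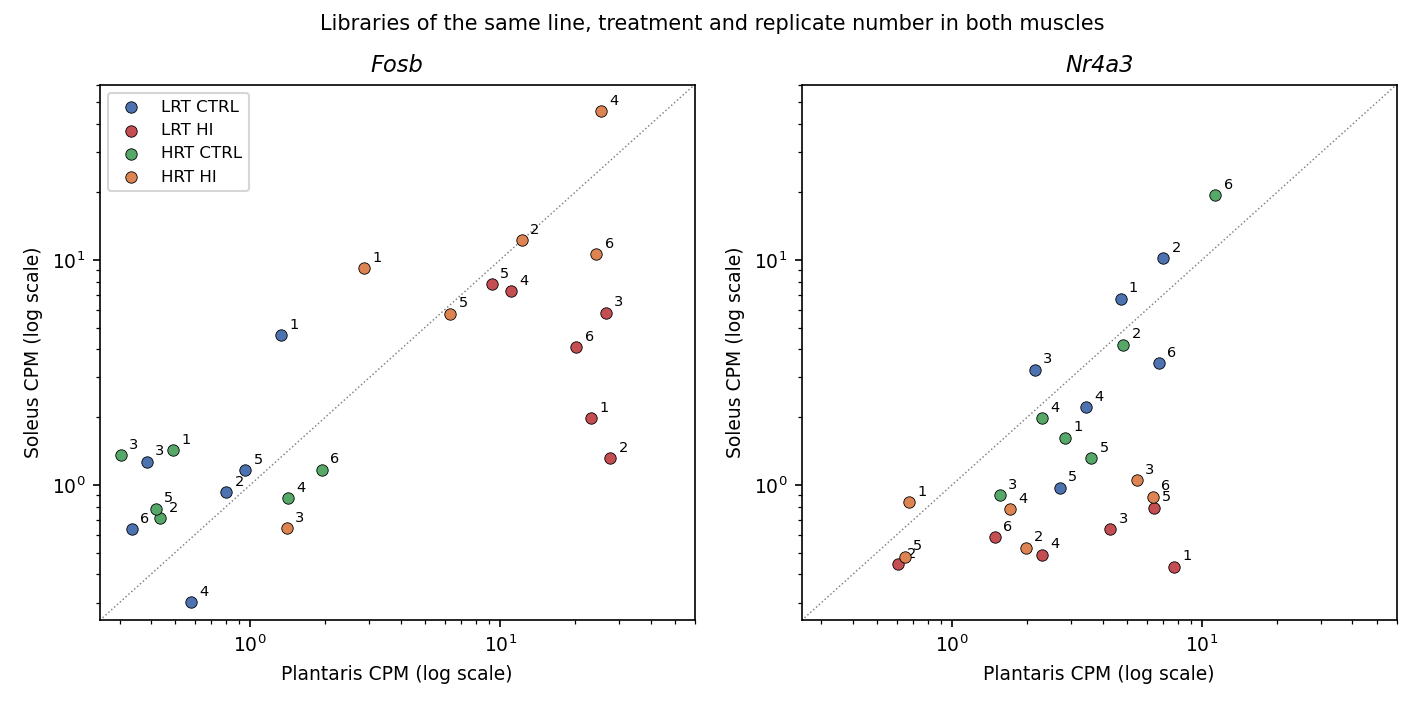
CPM in soleus against CPM in plantaris (both log scales) for libraries of the same line, treatment and replicate number, with digits for the number and a dotted line of equal CPM. HRT HI replicates 3 and 4 lie at opposite ends for Fosb, all 6 LRT HI points lie below the line for Fosb and for Nr4a3, and HRT CTRL replicate 6 lies apart for Nr4a3.

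Over the 48 libraries the levels of Fosb and Nr4a3 had a Pearson r of -0.27 on the log2 CPM scale, and of 0.10 after the group means were removed. The genes most like Fosb among those with a symbol were Nfkbiz (r = 0.86), an inducible regulator of NF-κB, Junb (0.81), a dimer partner of Fos proteins, Mt1 (0.81), a metallothionein, AABR07065124.2 (0.79) and Hdac4 (0.75), a class IIa histone deacetylase. After removal of the group means r was 0.77 for Nfkbiz, 0.74 for Junb, 0.54 for AABR07065124.2, 0.34 for Mt1 and 0.25 for Hdac4. The genes most like Nr4a3 were Atf3 (0.78), a stress-induced bZIP factor, Nr4a1 (0.72), Abra (0.71), which activates the SRF pathway in striated muscle, Nr4a2 (0.71) and Adamts9 (0.67), a secreted protease. After removal of the group means these were 0.72, 0.52, 0.43, 0.63 and 0.42. Among the 20 nearest genes, 10 for Fosb and 7 for Nr4a3 had a symbol. These are descriptions across libraries that share muscle, line, treatment and depth.

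Other genes of the same pathways were counted in 4 lists, which were drawn up with earlier results known. Of 63 genes listed, 36 had an identifier paired with a symbol, and all 36 were tested. Symbols were paired only for genes that the study had called on these libraries. A share of calls above that of all genes was therefore built into the choice. The counts, here and for each list below, are independent evidence neither of a response nor of a direction. In LRT plantaris 16 of the 36 were called higher, beside 15.1% of all genes, and 6 lower, beside 13.6%, with a median log2 fold change of 0.11 beside 0.01 over all genes. In HRT plantaris 11 were higher (5.11% of all genes) and 5 lower (5.85%), with a median of 0.14 beside 0.02. In LRT soleus 3 were higher (7.36%) and 10 lower (6.58%), with a median of -0.68 beside 0.01. In HRT soleus 5 were higher (7.95%) and 9 lower (8.23%), with a median of -0.22 beside 0.01. The 6 lower genes of LRT plantaris and the 3 higher genes of LRT soleus were near the share of all genes. The count of lower genes in HRT plantaris depended most on single libraries, being 2 without HI replicate 1 or CTRL replicate 6, 3 without HI replicate 4 or CTRL replicate 4, and 8 without HI replicate 6. The count of higher genes there was 6 without HI replicate 4.

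Of the AP-1 and related bZIP factors 8 of 16 were tested. In LRT plantaris 6 were called higher (15.1% of all genes) and 0 lower (13.6%), and in HRT plantaris 3 higher (5.11%) and 1 lower (5.85%). In soleus 0 were higher and 2 lower in each line, where 7.36% and 6.58% of all genes were higher and lower in LRT and 7.95% and 8.23% in HRT. Junb, a partner of FosB in AP-1, had 4.43, 7.74 and 9.56 CPM (lowest, median and highest) in LRT CTRL plantaris and 15.3, 25.7 and 63.9 CPM in LRT HI plantaris, without overlap. Its log2 fold change was 2.03 (SE 0.35, adjusted p = 4.5e-05) there and 1.03 (SE 0.34, adjusted p = 0.044) in HRT plantaris, a call that was lost without HI replicate 4 and in most other alternatives, with an adjusted p between 0.019 and 0.14. In soleus Junb was at 0.32 for LRT (adjusted p = 0.58) and at 0.59 for HRT (adjusted p = 0.25) and did not pass. Fos, the founding member of the family, had a log2 fold change of 1.58 (SE 0.51, adjusted p = 0.017) in LRT plantaris. It was 1.07 (adjusted p = 0.16) in HRT plantaris, -1.05 (adjusted p = 0.16) in LRT soleus and 0.29 (adjusted p = 0.75) in HRT soleus.

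The small Maf factor Maff (2.16, adjusted p = 0.00013), Fosl1 (1.24, adjusted p = 0.0023), Mafg (1.19, adjusted p = 5e-05) and Bach1 (1.41, adjusted p = 2.1e-06), a repressor that pairs with small Maf proteins, rose on the log2 scale in LRT plantaris. In HRT plantaris Mafg (0.83, adjusted p = 0.0089) and Bach1 (0.89, adjusted p = 0.0025) rose, and the call of Mafg was lost without HI replicate 4 (adjusted p = 0.052). Other bZIP genes moved the other way. Atf3 fell by 2.63 on the log2 scale in LRT soleus (SE 0.51, adjusted p = 0.00061) and by 2.03 in HRT soleus (SE 0.51, adjusted p = 0.0055), while in plantaris it was at -0.83 for LRT (adjusted p = 0.2) and at -0.87 for HRT (adjusted p = 0.26) and did not pass. Jund, the broadly expressed Jun protein, fell by 0.91 in LRT soleus (adjusted p = 0.0095), by 1.08 in HRT soleus (adjusted p = 0.0033) and by 0.86 in HRT plantaris (adjusted p = 0.02), the last call being lost without HI replicate 1 or CTRL replicate 4 or 6 (adjusted p up to 0.061).

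The other NR4A receptors, Nr4a1 (Nur77) and Nr4a2 (Nurr1), were called lower in LRT soleus, as 2 of 2 genes, and as 1 of 2 in HRT soleus, with 0 of 2 called in plantaris of either line. Of all genes 6.58% were called lower in LRT soleus, 8.23% in HRT soleus, 13.6% in LRT plantaris and 5.85% in HRT plantaris. Nr4a2 had 2.3, 3.43 and 16.8 CPM (lowest, median and highest) in LRT CTRL soleus and 0.893, 1.47 and 1.96 CPM in LRT HI soleus, without overlap. Its log2 fold change was -2.46 (SE 0.50, adjusted p = 0.001) there and -1.38 (SE 0.49, adjusted p = 0.048) in HRT soleus. The HRT call was lost under most alternatives, HRT CTRL replicate 6 left out among them, with an adjusted p of up to 0.29. Nr4a1 had 8.63, 20.5 and 38.8 CPM in LRT CTRL soleus and 4.05, 5.6 and 14.5 CPM in LRT HI soleus, with overlap. Its log2 fold change was -1.67 (SE 0.44, adjusted p = 0.0092) in LRT soleus and -1.18 (SE 0.44, adjusted p = 0.06) in HRT soleus. The HRT difference of Nr4a1 passed with DESeq2 and without HI replicate 6, CTRL replicate 3 or CTRL replicate 4 (-1.50 to -0.91 over all alternatives, adjusted p from 0.022 to 0.19), so the count of 1 of 2 in HRT soleus depends on the setting for both genes. In plantaris Nr4a1 was at -0.87 (adjusted p = 0.12) in LRT and -0.55 (adjusted p = 0.43) in HRT, and Nr4a2 at -0.87 in both lines (adjusted p = 0.18 and 0.25). The HRT plantaris difference of Nr4a2 passed without HI replicate 6 (adjusted p = 0.047), and was -1.52 to -0.65 over all alternatives.

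Among other immediate-early genes 13 of 32 were tested. In plantaris 7 were called higher (15.1% of all genes) and 2 lower (13.6%) in LRT, and 4 higher (5.11%) and 2 lower (5.85%) in HRT. In soleus 0 were called higher in either line, against 7.36% of all genes in LRT and 7.95% in HRT, so that with 13 genes a count of 0 is near the background. In soleus 3 were called lower in LRT (6.58% of all genes) and 4 in HRT (8.23%). Egr1, a zinc finger factor induced through SRF, rose by a log2 fold change of 1.72 in LRT plantaris (SE 0.39, adjusted p = 8e-04) and 1.65 in HRT plantaris (SE 0.39, adjusted p = 0.0058). In soleus it was -0.73 (adjusted p = 0.2) and 0.02 (adjusted p = 0.98). Dusp8, a MAP kinase phosphatase, was called lower in all 4 comparisons, with log2 fold changes of -0.93, -1.12, -1.28 and -1.59 (LRT and HRT plantaris, LRT and HRT soleus). Klf4, a Krüppel-like factor, fell by 1.08 in LRT soleus (adjusted p = 0.0014) and by 0.68 in HRT soleus (adjusted p = 0.034), and the HRT call was lost under most alternatives (adjusted p up to 0.10).

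All 13 genes of contraction, calcium, CREB or load signalling had a paired symbol and were tested, so this list held only genes that the study had called. In plantaris 3 were called higher (15.1% of all genes) and 4 lower (13.6%) in LRT, and 4 higher (5.11%) and 2 lower (5.85%) in HRT. In soleus the counts were 3 higher (7.36%) and 3 lower (6.58%) in LRT, and 5 higher (7.95%) and 2 lower (8.23%) in HRT. Rcan1, a calcineurin inhibitor that is itself induced by calcineurin, had 458, 739 and 1030 CPM (lowest, median and highest) in LRT CTRL soleus and 42, 72.7 and 510 CPM in LRT HI soleus. It fell by 2.22 on the log2 scale there (SE 0.56, adjusted p = 0.0061) and by 2.46 in HRT soleus (SE 0.57, adjusted p = 0.0029), and did not pass in plantaris (-0.28, adjusted p = 0.74, and -0.99, adjusted p = 0.26). Over the alternatives the soleus values of Rcan1 were -2.94 to -2 in LRT and -3.05 to -2.24 in HRT, and both calls were kept. Hdac4 rose in all 4 comparisons, by log2 fold changes of 2.83 and 2.29 in LRT and HRT plantaris and of 2.44 and 2.02 in LRT and HRT soleus. Ppargc1a, the coactivator of mitochondrial genes, fell by 1.01 in LRT plantaris (adjusted p = 0.0062) and was at -0.38, -0.29 and -0.05 elsewhere (HRT plantaris, LRT and HRT soleus).

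**Figure D5:**
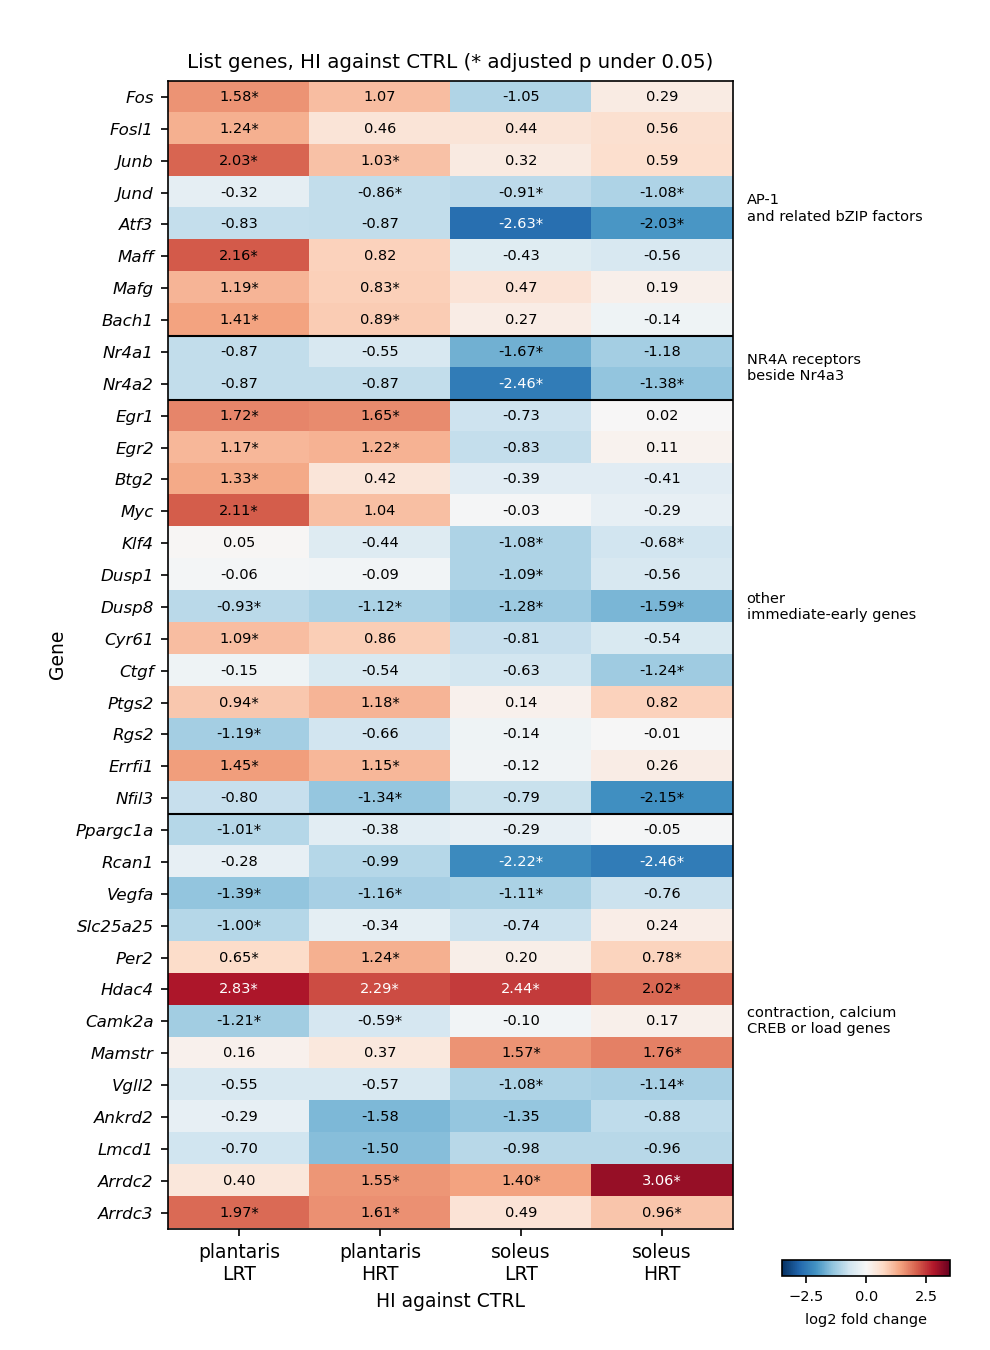
Log2 fold changes of HI against CTRL for the 36 pathway genes in the 4 comparisons of muscle and line, with an asterisk at an adjusted p under 0.05 and lines between the 4 lists. Junb (2.03) and Egr1 (1.72) are red in LRT plantaris, while Atf3 (-2.63), Nr4a2 (-2.46) and Rcan1 (-2.22) are blue in LRT soleus.

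Genes listed as markers of other cell types moved with some of these values. As with the lists above, a marker had a symbol only if the study had called it on these libraries, so the calls of these markers are descriptions and not independent evidence that a cell type changed. Of 6 genes listed as leukocyte markers 3 had a symbol, S100a9 and the chemokines Ccl2 and Ccl7. Chemokines attract leukocytes, so the sum of these 3 genes is not read as a number of leukocytes. In HRT HI soleus S100a9 alone reached 18.9 CPM. The summed CPM of the 3 genes had a median of 2.38 in HRT CTRL soleus (0.717 to 4.37) and of 7.9 in HRT HI soleus (2.81 to 26). In HRT plantaris its median was 3.66 in CTRL (1.98 to 5.52) and 5.63 in HI (3.92 to 14.4), with overlap. Within HRT HI the sum was highest in replicate 4 (14.4 in plantaris and 26 in soleus) and lowest in replicate 3 (3.92 and 2.81), the same libraries that were highest and lowest in Fosb. In LRT HI the order was different: in soleus the sum was highest in replicate 1 (6.96, with 1.98 CPM of Fosb) and lowest in replicate 5 (3.1), which had the highest Fosb (7.82 CPM). In LRT HI plantaris the library with the highest Fosb, replicate 2 (27.6 CPM), had the second lowest sum of these genes (3.02). The sum was 1.86 to 5.34 in LRT CTRL plantaris and 2.89 to 7.75 in LRT HI plantaris. The defining markers Ptprc, Cd68 and Csf1r had no paired symbol. In HRT soleus the 3 genes were called higher on the log2 scale, S100a9 by 2.35 (adjusted p = 0.021), Ccl2 by 1.52 (adjusted p = 0.0066) and Ccl7 by 1.21 (adjusted p = 0.031). The call of S100a9 there was lost without HI replicate 4, without CTRL replicate 6 and with each muscle fitted alone (1.60 to 3.14, adjusted p up to 0.11), while Ccl2 kept its call in all alternatives run. Ccl7, a chemokine for monocytes, was also called higher in LRT plantaris (1.27, adjusted p = 0.012), HRT plantaris (1.14, adjusted p = 0.043) and LRT soleus (1.17, adjusted p = 0.042). Its calls outside LRT plantaris were lost under several alternatives, with adjusted p up to 0.18 in HRT plantaris, 0.13 in LRT soleus and 0.083 in HRT soleus.

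Of 3 genes listed as myogenic progenitor markers 2 had a symbol, Myod1 and Myog. Their levels went opposite ways between uncast muscles. In HRT CTRL mean Myod1 was 12.9 CPM in plantaris and 2.04 in soleus, and mean Myog 18 and 60.2. The sum of both is therefore not read as a number of progenitor cells. It had a median of 32.2 CPM in LRT CTRL plantaris (25.8 to 43) and of 85.4 CPM in LRT HI plantaris (62.6 to 279), without overlap. This difference came from Myog (log2 fold change 2.62, adjusted p = 4.4e-05), while Myod1 overlapped between the groups and did not pass (0.25, adjusted p = 0.56). In HRT plantaris the sum had a median of 31.8 CPM in CTRL (20.9 to 36.9) and of 45.3 CPM in HI (18.7 to 156), with overlap. There it was highest in replicate 4, the library with the highest Fosb, and lowest in replicate 6, which had the second highest Fosb (24.3 CPM). In HRT soleus Myod1 was called higher (1.26, adjusted p = 0.0072, at most 0.032 over the alternatives), while Myog was at -0.14 (adjusted p = 0.87). The sum of 6 of 7 fibroblast and tendon markers was lower by median in HI than in CTRL in all 4 comparisons. Its CTRL and HI medians were 768 and 272 CPM in LRT plantaris, 922 and 354 CPM in HRT plantaris, 746 and 370 CPM in LRT soleus and 990 and 665 CPM in HRT soleus, with overlap in each. The fast fibre sum had a median of 18800 CPM in LRT CTRL plantaris (15800 to 21700) and of 9460 CPM in LRT HI plantaris (4600 to 14200), without overlap. In HRT plantaris, where the rise of Fosb was tested, it had a median of 14000 CPM in CTRL (13100 to 14900) and of 10700 CPM in HI (6290 to 12000), also without overlap. Of the 5 markers only Pgam2 (-1.07, adjusted p = 0.015) and Eno3 (-0.68, adjusted p = 0.036) were called lower in HRT plantaris. Both calls were lost under some alternatives (adjusted p up to 0.051 and 0.11). Myoz1 (-0.43), Pvalb (-0.39) and Atp2a1 (0.12) did not pass there. In LRT plantaris Myoz1 (-1.01), Pgam2 (-1.67) and Eno3 (-1.28) were called lower, while Pvalb (-1.04) and Atp2a1 (-0.32) did not pass. The Pvalb libraries did not overlap there (1980 to 3120 CPM in CTRL and 1070 to 1530 CPM in HI). Pvalb passed with each muscle fitted alone (adjusted p from 0.0015 to 0.17 over the alternatives). The sum of 3 erythroid markers had a median of 108 CPM in HRT CTRL soleus (59.8 to 233) and of 333 CPM in HRT HI soleus (68.4 to 3150). In this comparison, in which both Fosb and Nr4a3 were called, Hbb (2.61, adjusted p = 0.0067), Alas2 (2.86, adjusted p = 0.0018) and Slc4a1 (1.52, adjusted p = 0.006) were called higher on the log2 scale. The call of Hbb was lost without HRT HI replicate 5 and with each muscle fitted alone (1.31 to 2.97 over the alternatives, adjusted p up to 0.092). That of Slc4a1 was lost with each muscle fitted alone (0.76 to 1.76 over the alternatives, adjusted p up to 0.077). Alas2 was between 1.64 and 3.22 and kept its call. The part of these cell types in the values of Fosb and Nr4a3 was not tested.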

How the data were processed

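RNA of 48 rat muscle libraries was sequenced as paired-end reads. According to the methods and the submitters' processing notes, Salmon 0.9.1 quantified transcripts of Rnor_6.0 and tximport gave gene levels. What the authors deposited are estimated counts, scaled for length and without normalization between libraries, and 66.0% of them were not whole. The total count of a library was between 26.8 M and 36.4 M, and no library had 3 or fewer counts of Fosb or Nr4a3. The labels and the methods name different library kits, so strandedness is uncertain. RIN was taken from the labels, and the lowest of these values (7.8) is below the minimum that the methods state, a conflict that was not resolved; fits without RIN are among the alternatives.

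Counts were rounded, filtered by filterByExpr, scaled by TMM and fitted in edgeR 4.0.16 (R 4.3.3) by the quasi-likelihood test with the 8 groups and RIN, with Benjamini-Hochberg adjustment over 16960 genes and a threshold of 0.05. The lowest mean chi-square per gene of the 120 pairs of replicates was 12, so all 48 were kept as separate samples. Intervals are 95%. Log2 CPM used a prior count of 2. The members and lists were chosen with earlier results of these data known. Fosb was therefore tested only where no LRT plantaris library entered, and Nr4a3 only where no LRT soleus library entered. Since results of the other groups were known too, these tests are not fully independent of the choice of either gene. Named genes were the members, the list genes with a paired identifier, and up to 5 genes with a symbol among the 20 nearest to each member by r. Symbols came from annotation columns of the study's tables (1149 of 31998 identifiers), and promoters from RefSeq (GRCr8). The authors' fold changes and p-values in those tables were not used. The model was tested on simulated data. Alternatives used DESeq2 1.42.0 and limma 3.58.1.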

Additional observations from a re-analysis of the deposited data

Results flagged for a closer look

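Of 16 sets of 6 libraries (8 groups, 2 genes), 4 held a highest library that stood far from the others by Dixon's ratio, the gap to the next library divided by the range of the group, above its 95% critical value for 6 samples. Chance gives such a ratio in about 1 in 20 groups of normally distributed values, and CPM is skewed to the right. On the log2 CPM scale, tried after seeing the data, 0 of the 16 were past the critical value. For Fosb these were replicate 4 of HRT HI soleus (45.7 CPM, ratio 0.743, and 0.32 on the log2 scale) and replicate 1 of LRT CTRL soleus (4.62 CPM, ratio 0.777, and 0.49 on the log2 scale). For Nr4a3 they were replicate 6 of HRT CTRL plantaris (11.3 CPM, ratio 0.662, and 0.43 on the log2 scale) and replicate 6 of HRT CTRL soleus (19.4 CPM, ratio 0.822, and 0.51 on the log2 scale), which carry the same number. No low library was past the critical value on either scale.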

How the results depend on the processing

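Of the results that passed the test, the rises of Fosb in HRT plantaris and HRT soleus passed in all alternatives run, among them each library left out in turn. The fall of Nr4a3 in HRT soleus passed in all alternatives except without CTRL replicate 6 (-2.97 to -1.49 with 1 library left out), and its muscle difference in HRT HI in all except without plantaris HI replicate 6 (1.76 to 2.35). The Fosb difference in LRT soleus passed with DESeq2 (1.68), with library totals without TMM (1.76) and in 2 of 12 fits with 1 library left out (1.86 and 2.37), while all 12 of these gave 1.34 to 2.37. The cause was not tested. With at least 10 counts required in every library Fosb was not tested.

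Small differences that did not pass the test changed sign. For Nr4a3 these were LRT plantaris HI (0.10 with library totals, -0.47 to 0.12 with 1 library left out), HRT plantaris HI (-1.05 to 0.08), DELTA plantaris (-0.20 to 0.93), LRT against HRT in plantaris CTRL (-0.05 with library totals, -0.23 to 0.71) and plantaris against soleus in HRT CTRL (-0.10 with library totals, -0.17 without RIN, -0.57 to 1.12). For Fosb they were LRT against HRT in soleus CTRL (-0.06 with limma-voom, -0.04 with same-numbered muscles as a random block, -0.40 to 0.50), plantaris against soleus in HRT HI (-0.21 without RIN) and in HRT CTRL (-0.66 to 0.06). With 1 library left out the untested values of LRT against HRT were 0.56 to 1.40 for Fosb in plantaris HI and -0.66 to 1.10 for Nr4a3 in soleus CTRL, DELTA of Nr4a3 in soleus was -1.55 to 0.17, and its muscle difference in LRT CTRL -0.04 to 0.80. The Fosb difference between lines in soleus HI was -1.66 to -0.74. Library totals moved the median of all genes by 0.24 in LRT plantaris, 0.16 in HRT plantaris and 0.14 in LRT soleus, so the sign change of Nr4a3 in LRT plantaris lies within that shift.

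The replicate number as a block left the calls of Fosb and Nr4a3 as they were (for example 3.84 for Fosb in HRT plantaris and -2.34 for Nr4a3 in HRT soleus) and gave 0.10 for Nr4a3 in LRT plantaris. Same-numbered HI and CTRL libraries did not deviate together (r from -0.17 to 0.072). Between the muscles 22 of 24 same-numbered pairs had r over 0.1 (median 0.24). The labels do not state that such a pair is 1 rat. With same-numbered muscles as a fixed block the Nr4a3 muscle difference in HRT HI was 1.79 (adjusted p = 0.0031).

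Over the lists, alternatives other than the fold threshold were added after seeing the data. In HRT plantaris 8 in place of 5 genes were lower with the replicate block, 3 with an absolute log2 fold change over 1, and 2 to 8 with 1 library left out, and 6 to 12 were higher. In HRT soleus 3 in place of 5 were higher past that fold. Over all genes DELTA called 35 (DESeq2), 11 (the strict filter), 9 (no RIN) or 3 (library totals) in place of 5 in soleus, and the HRT difference of HI effects between muscles called 1 (genes with any count) to 223 (same-numbered muscles as a random block) in place of 16. Library totals called 3019 in place of 1859 genes in HRT plantaris HI. Of LRT against HRT, DESeq2 called 163 in place of 89 in plantaris CTRL, 700 in place of 410 in plantaris HI and 437 in place of 246 in soleus CTRL, while the strict filter called 56 in plantaris CTRL, the random block of same-numbered muscles 135 there, and library totals 234 in plantaris HI and 558 in soleus CTRL. With any count kept 236 were called in plantaris HI.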

Other observations

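The summed CPM of 3 erythroid markers (Hbb, Alas2 and Slc4a1) was highest in replicate 5 of HRT HI in both muscles, with 1130 in plantaris and 3150 in soleus, against group medians of 163 and 333. These libraries had 6.31 and 5.76 CPM of Fosb and 0.647 and 0.48 CPM of Nr4a3, the latter the lowest values of their groups.

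Mamstr, a coactivator of MEF2 in muscle, was called higher in soleus of both lines (log2 fold change 1.57 with an adjusted p of 0.0015 in LRT, and 1.76 with 0.00055 in HRT) and did not pass in plantaris (0.16, adjusted p = 0.73, and 0.37, adjusted p = 0.47). Arrdc2, an arrestin-domain gene, had its highest log2 fold change in HRT soleus (3.06, SE 0.36, adjusted p = 2.4e-07), with 1.40 in LRT soleus (adjusted p = 0.0047), 1.55 in HRT plantaris (adjusted p = 0.002) and 0.40 in LRT plantaris (adjusted p = 0.36). DELTA of Arrdc2 did not pass in soleus (-1.66, SE 0.48, adjusted p = 0.23) or plantaris (-1.15, SE 0.43, adjusted p = 0.76), nor did that of Mamstr (-0.19 and -0.20). The differences between the muscles in these genes were not tested.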
